A study of Mus musculus with 2 samples.

Results

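The 10 genes Fabp7, Slc1a3, Tnc, Vim, Nes, Sox2, Sox9, Pax6, Hopx and Ptprz1 are commonly used to recognise radial glia, and they were followed across every class of cell in the mouse forebrain before birth. Their rows were taken by symbol, not by counts, from the 32285 genes of the deposited matrices, but the set was chosen with earlier results of these data known. Each symbol matched a single row in both matrices. The study profiled dissociated forebrains of mouse embryos at embryonic day 18.5 in 2 droplet libraries, 1 of genotype WT and 1 of genotype Cyfip2 knockout. Each library pooled 2 forebrains, so a group has a single library, no test between the groups is possible, and embryos cannot be told apart. Cyfip2 encodes a subunit of the WAVE complex, which drives branched actin assembly. The sources used here do not give the strain, the sex of the embryos or the deleted part of Cyfip2.

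Radial glia are the neural stem cells of the developing forebrain. They line the ventricle, send a long fibre to the pial surface along which newborn neurons migrate, and give rise to neurons, directly or through intermediate progenitors, and later to astrocytes and other glia. Their identity is carried by transcription factors of the SOX and PAX families, by intermediate filaments of the long fibre, and by lipid-binding, glutamate-handling and matrix proteins that astrocytes later share. Sox2, Sox9, Vim and Nes are also known from other progenitors or other tissues, so the set is used as a whole rather than gene by gene.

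The libraries held 123978461 (wild type) and 150828048 (knockout-labelled) UMIs, that is, counted transcript molecules. After the filters, 8426 and 11533 cells were kept, at a median depth of 9567 and 7802 UMIs per cell (3376 and 2964 genes), and 32 cell barcodes were present among the cells of both libraries. The tags of Cyfip2 were as frequent in the library labelled Cyfip2 knockout (84.2 CPM, the UMIs of a gene per 1000000 UMIs of the cells) as in wild type (85.0 CPM). A tag at the end of a transcript can lie outside the deleted part, so this checks nothing about the genotype, which rests on the label. Levels are given as CPM, wild type before the knockout-labelled library. All intervals are at 95% and cover counting error only. A difference is called higher or lower at 1.5-fold or more with an interval for the ratio that excludes 1, which is a rule of size. It was applied to genes that reach 20 CPM in at least 1 library and 100 UMIs over both, here named measured genes.

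Cells were grouped into 29 clusters with the 10 genes left out of the clustering, and clusters were named from markers that hold none of the 10, so that the levels of the 10 in each class were free to differ. The radial glia-like class was cluster 1, led by Aldoc, Fabp7, Mt3, Tnc and Mt2. It had 344 wild-type and 273 knockout-labelled cells, which were 4.08% (3.67% to 4.53%) and 2.37% (2.10% to 2.66%) of the kept cells, a ratio of shares of 0.580 (0.493 to 0.682). These cells were deep, with medians of 15742.5 and 13946 UMIs, and held 5.61% and 3.47% of the UMIs. The summed level of 40 other radial glia markers was 17992 and 20153 CPM, with 1 of them at 0 in each library. In the same cells, 30 immune markers summed to 37.6 and 49.6 CPM, 46 excitatory neuron markers to 1006 and 911 CPM, and 55 GABAergic neuron markers, some of which progenitors also express, to 2649 and 2791 CPM. The share of radial glia-like cells lay lower in the knockout-labelled library under every clustering and cell filter tried, for example 3.12% and 1.71% at a finer clustering and 4.29% and 2.78% with suspected doublets kept. Dissociation and sampling can set such shares, and their part in this difference was not tested.

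All 10 genes have a place in mm10 according to the GENCODE annotation. Fabp7 lies on chromosome 10 from 57784881 to 57788450, Slc1a3 on chromosome 15 from 8634124 to 8710764, Tnc on chromosome 4 from 63959785 to 64047015, and Vim on chromosome 2 from 13573927 to 13582826. Nes lies on chromosome 3 from 87971078 to 87980451 and Sox2 on the same chromosome from 34650405 to 34652461. Sox9 lies on chromosome 11 from 112782224 to 112787760, Pax6 on chromosome 2 from 105668900 to 105697364, Hopx on chromosome 5 from 77086988 to 77115121, and Ptprz1 on chromosome 6 from 22875502 to 23052916. Sox2 sits within Sox2ot on the same strand, and Gm37310 overlaps Slc1a3 on the same strand. Transcripts of the opposite strand overlap Tnc (8030451A03Rik), Pax6 (Pax6os1) and Hopx (Hopxos). The sources used here do not say whether counting used the strand, so reads of these overlapping genes may be mixed.

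Start-site windows of 4 members are shown because they belong to the 3 members most restricted to radial glia-like cells, Fabp7, Tnc and Hopx, and to the least restricted one, Sox2. They lie upstream of a RefSeq start in the GRCm38.p6 build, each read along the strand of its gene. Bases inside the GENCODE gene are not shown, so the Fabp7 stretch stops at the GENCODE start and short of the RefSeq start from which its motif position is counted. Capitals mark a 6-letter match to the RBPJ motif TGGGAA, the motif of the Notch effector, here on the reverse strand as TTCCCA, or to the SOX motif ACAAAG.
Fabp7, chr10:57784673-57784880, plus strand: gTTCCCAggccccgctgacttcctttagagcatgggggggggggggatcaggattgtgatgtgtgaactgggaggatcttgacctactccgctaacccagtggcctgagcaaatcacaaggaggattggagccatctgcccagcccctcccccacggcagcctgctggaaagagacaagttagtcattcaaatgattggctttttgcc
Tnc, chr4:64047016-64047265, minus strand: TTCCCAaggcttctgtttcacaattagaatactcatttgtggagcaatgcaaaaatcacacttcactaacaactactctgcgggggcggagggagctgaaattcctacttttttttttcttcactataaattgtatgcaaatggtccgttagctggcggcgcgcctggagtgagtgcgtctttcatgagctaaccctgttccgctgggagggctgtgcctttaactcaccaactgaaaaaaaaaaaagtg
Hopx, chr5:77115124-77115373, minus strand: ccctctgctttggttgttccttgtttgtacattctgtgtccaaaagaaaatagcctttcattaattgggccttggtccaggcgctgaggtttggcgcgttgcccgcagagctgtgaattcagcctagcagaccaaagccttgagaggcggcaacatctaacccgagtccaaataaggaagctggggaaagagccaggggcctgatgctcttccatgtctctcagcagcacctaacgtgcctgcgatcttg
Sox2, chr3:34649745-34649994, plus strand: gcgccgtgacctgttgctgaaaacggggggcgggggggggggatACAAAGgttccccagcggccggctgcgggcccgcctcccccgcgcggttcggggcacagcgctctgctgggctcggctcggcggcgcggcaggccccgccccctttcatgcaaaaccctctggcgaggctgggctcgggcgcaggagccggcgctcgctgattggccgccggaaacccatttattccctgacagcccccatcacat
The RBPJ letters lie from 249 to 244 bases upstream of the RefSeq start of Fabp7 and from 250 to 245 bases upstream of this Tnc start, and the SOX letters from 206 to 201 bases upstream of the Sox2 start.

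Windows of 250 bases upstream of a start were available for 9 of the 10 members, and they were searched on both strands for 6 motifs. A member counted if any of its start windows held the motif, while the share over all promoters counts single windows, so the 2 are not like for like. TGGGAA was found for 2 of the 9 (Fabp7 and Tnc), against 21.6% of all 32851 promoters. ACAAAG was found for 2 (Sox2 and Pax6), against 16.5%. The GC box GGGCGG was found for 5 (Slc1a3, Tnc, Nes, Sox2 and Ptprz1), against 32.7%, and the TATA box TATAAA for 3 (Slc1a3, Tnc and Vim), against 12.4%. The octamer ATGCAAAT of POU factors was found for 1 (Tnc), against 1.60%, and the paired NFI motif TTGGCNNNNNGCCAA for none, against 0.0365%. Members with and without each motif are too few to be told from the share among all promoters, and the letters alone do not make a binding site.

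Every one of the 10 genes was at its highest in the radial glia-like class, in both libraries, among the 8 classes with at least 50 cells in each, though for Sox2 by less than the counting error. How far it stood above the next class differed widely. Tnc, tenascin C of the extracellular matrix, was at 374 CPM (358 to 390) and 288 CPM (271 to 305) in radial glia-like cells. Its next class was dividing progenitor-like cells in wild type, at 11.7 CPM, and eminence progenitor-like cells in the knockout-labelled library, at 22.5 CPM, ratios of 32.0-fold and 12.8-fold. Fabp7, the brain fatty acid-binding protein, was at 8119 CPM (8043 to 8195) and 8937 CPM (8842 to 9033), 18.2-fold and 7.46-fold above eminence progenitor-like cells. Hopx, a small homeodomain protein without DNA binding of its own that marks outer radial glia, was at 117 CPM (108 to 126) and 112 CPM (102 to 123), 13.9-fold and 13.1-fold above the next class. These 3 were the genes most restricted to the class.

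Slc1a3, the glutamate transporter GLAST, was at 640 CPM (619 to 662) and 607 CPM (582 to 632), 7.85-fold and 4.07-fold above eminence progenitor-like cells. The intermediate filament gene Vim was at 3040 CPM (2994 to 3087) and 3126 CPM (3070 to 3183), 4.03-fold and 4.22-fold above the next class. Nes, which encodes the filament protein nestin, was at 302 CPM (288 to 317) and 349 CPM (331 to 369), 2.83-fold and 2.76-fold above the next class. Sox9, a transcription factor of stem cells and of the switch to glia, was at 556 CPM (536 to 576) and 525 CPM (503 to 549), 2.77-fold and 2.64-fold above the next class. These 4 genes thus formed a middle range, high in radial glia-like cells and graded across the other progenitors.

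The remaining 3 genes had the smallest shares of their UMIs in radial glia-like cells, as given below. Ptprz1, a receptor tyrosine phosphatase that binds tenascins, was at 1674 CPM (1639 to 1708) and 1705 CPM (1664 to 1747), 3.18-fold and 3.72-fold above the next class. That is further than Nes and Sox9 stood above theirs, but the next class of Ptprz1 was excitatory neuron-like cells rather than other progenitors. Pax6, the transcription factor that sets dorsal forebrain progenitors apart, was at 341 CPM (325 to 357) and 304 CPM (287 to 322), 1.94-fold and 1.68-fold above intermediate progenitor-like cells. Sox2, the transcription factor of neural stem cells, was at 599 CPM (579 to 620) and 658 CPM (632 to 684) in radial glia-like cells and at 565 CPM (548 to 583) and 651 CPM (633 to 668) in dividing progenitor-like cells. The Sox2 intervals of these 2 classes overlapped in both libraries, so their order is not settled by the counts.

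Below the leading class the members fell into a few orders. Vim was at 755 and 740 CPM in eminence progenitor-like, 473 and 507 CPM in dividing progenitor-like and 444 and 359 CPM in intermediate progenitor-like cells, and at 46.2 and 46.0 CPM in excitatory neuron-like cells. Nes followed the same steps in wild type, from 107 CPM over 84.5 and 37.2 CPM to 20.96 CPM. Pax6 took another order, with 175 and 181 CPM in intermediate progenitor-like cells, 165 and 141 CPM in dividing progenitor-like cells and only 27.3 and 27.6 CPM in eminence progenitor-like cells. Pax6 was thus lower in the ventral eminence progenitor-like cells than in intermediate progenitor-like cells, while Vim, Nes, Sox9 and Fabp7 were higher there in both libraries. In immune cell-like cells Fabp7 was at 12.7 and 12.1 CPM, Sox9 had 0 and 3 UMIs, and Hopx had none in either library. Vim was at 61.2 and 58.8 CPM there, above excitatory neuron-like cells, and Nes at 22.1 and 15.1 CPM.

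**Figure D1:**
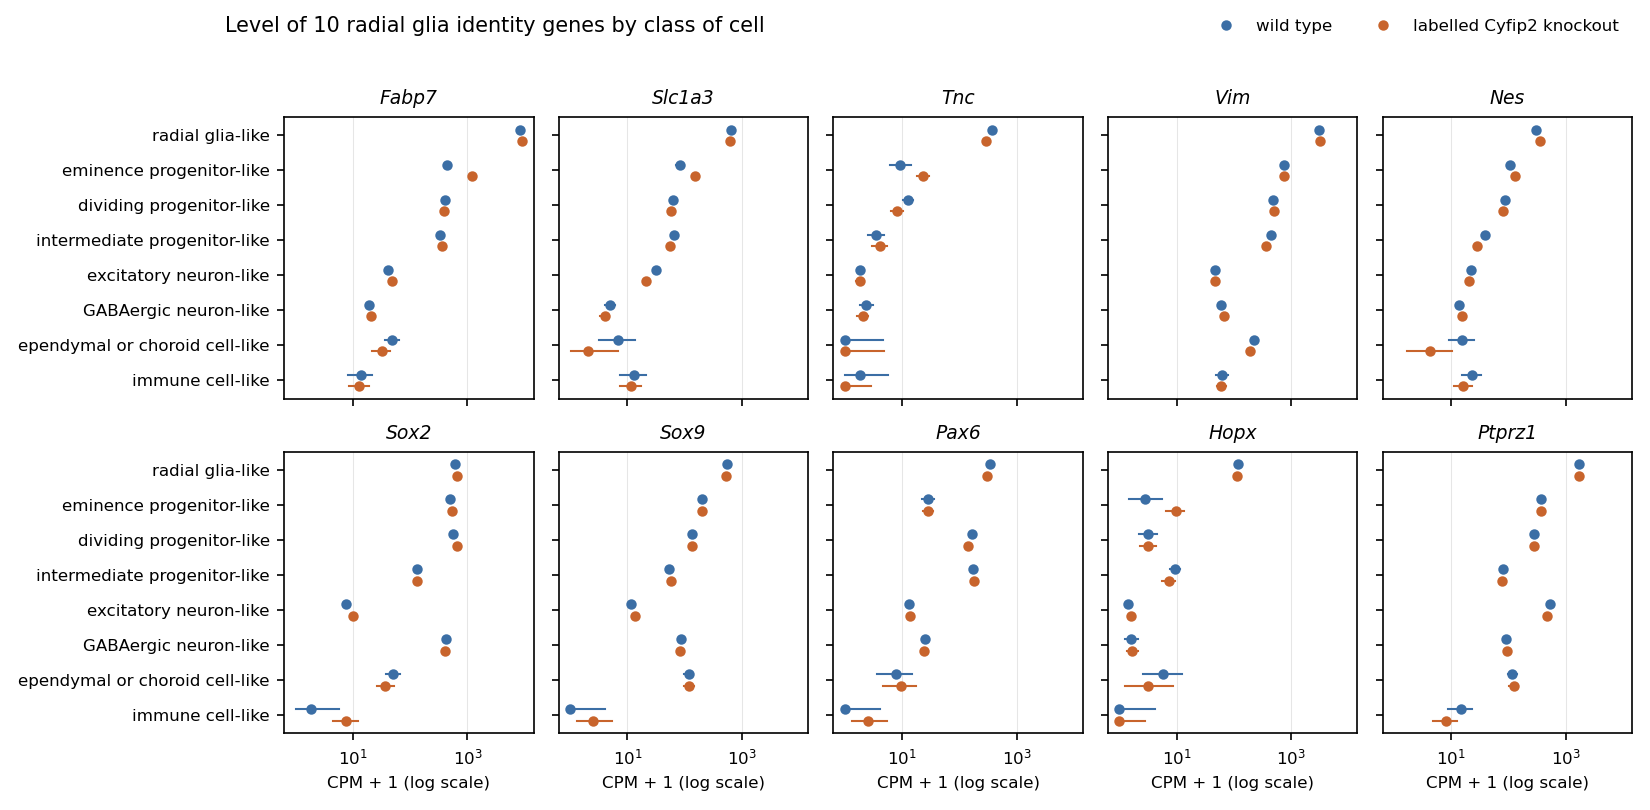
Level of each of the 10 genes (CPM plus 1, log axis) in the 8 classes with at least 50 cells in each library, wild type in blue and the library labelled Cyfip2 knockout in orange, with 95% intervals for counting error. Radial glia-like cells lie at the top for all 10 genes, while GABAergic neuron-like cells lie above intermediate progenitor-like cells for Sox2 (414 and 399 CPM), Sox9 (85.1 and 80.4 CPM) and Ptprz1 (89.3 and 94.5 CPM).

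Because radial glia-like cells are few, a high level in them did not always mean that they held most of the molecules. They held 91.2% and 82.7% of all Tnc UMIs of the kept cells, 82.7% and 72.4% of Hopx, and 81.1% and 70.5% of Fabp7. They held 53.3% and 43.1% of Slc1a3, 54.9% and 41.6% of Vim, 43.1% and 27.9% of Sox9, 38.4% and 29.5% of Nes and 32.6% and 22.4% of Pax6. For Ptprz1 and Sox2 another class held more molecules than the radial glia-like one in both libraries. Excitatory neuron-like cells held 66.9% and 66.5% of Ptprz1, against 21.1% and 16.4% in radial glia-like cells. GABAergic neuron-like cells held 38.3% and 44.8% of Sox2, against 20.0% and 12.2%. For Pax6 this was so in the knockout-labelled library alone, where intermediate progenitor-like cells held 27.6% and dividing progenitor-like cells 22.9%. The share held by radial glia-like cells was smaller in the knockout-labelled library for each of the 10 genes, beside their smaller share of UMIs there (3.47% against 5.61%).

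**Figure D2:**
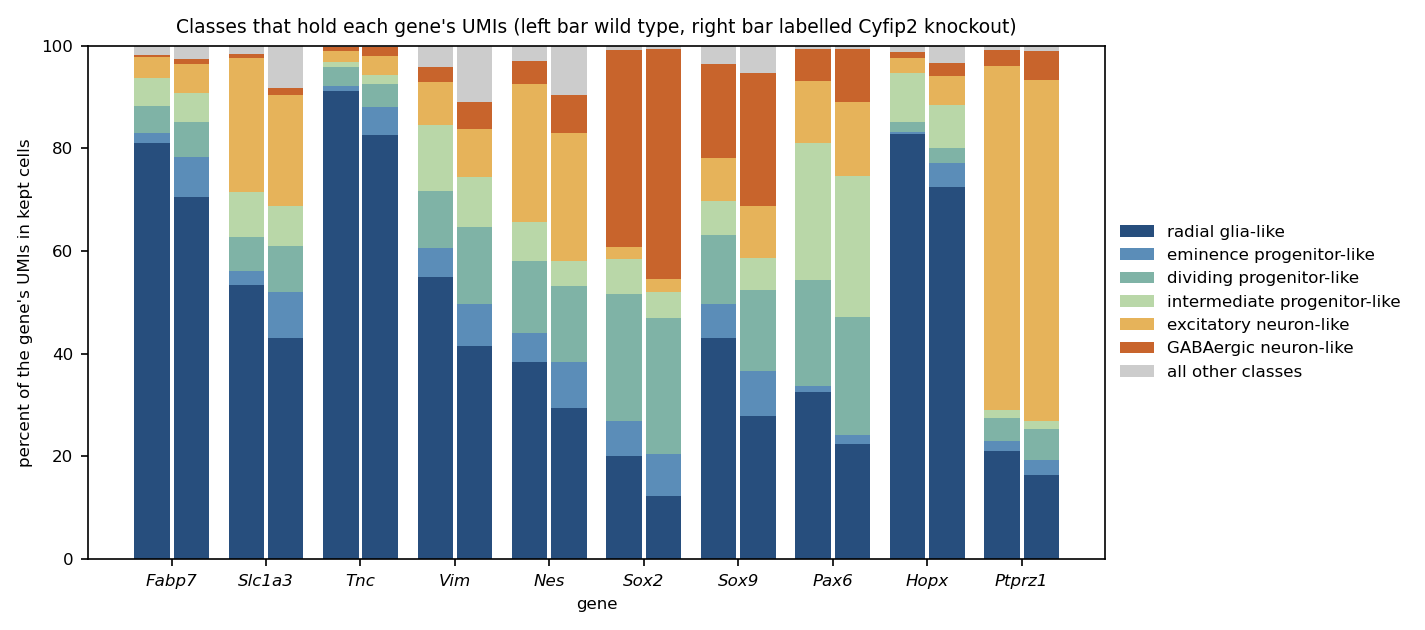
Percent of each gene's UMIs in the kept cells that lie in each class, with the wild-type bar on the left and the bar of the library labelled Cyfip2 knockout on the right of each pair. The radial glia-like segment is tallest for Tnc (91.2% and 82.7%) and shortest for Sox2 (20.0% and 12.2%) and Ptprz1 (21.1% and 16.4%).

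Over all kept cells together, 8 of the 9 measured members were lower in the knockout-labelled library, with intervals below 0 on the log2 scale, and Sox2 was higher. Tnc was at 23.0 and 12.1 CPM, a log2 ratio of -0.93 (-1.03 to -0.83), and was the 1 member called lower, among 0.0855% of the 7021 genes measured. No member was called higher, against 0.499% of the genes. Slc1a3 was at 67.3 and 48.9 CPM (-0.46), Fabp7 at 561 and 440 CPM (-0.35), Pax6 at 58.7 and 47.0 CPM (-0.32) and Ptprz1 at 445 and 361 CPM (-0.30). Vim was at 310 and 261 CPM (-0.25), Sox9 at 72.2 and 65.3 CPM (-0.14), Nes at 44.1 and 41.1 CPM (-0.10) and Sox2 at 168 and 187 CPM (0.16). Hopx was at 7.93 and 5.36 CPM and did not reach the level to be measured. The median of the 9 was -0.30, beside -0.02 over all measured genes.

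Within the radial glia-like class a shift of that size was not seen. All 10 members were measured there, none was called lower, against 1.28% of the 7181 genes measured, and none was called higher, against 0.529%. The median of the members was -0.02, beside -0.03 over all measured genes. Intervals lay above 0 for Nes (0.21; 0.10 to 0.31), Fabp7 (0.14; 0.12 to 0.16), Sox2 (0.13; 0.06 to 0.21) and Vim (0.04; 0.01 to 0.07). They lay below 0 for Tnc (-0.38; -0.48 to -0.27), Pax6 (-0.16; -0.27 to -0.06) and, at its edge, Slc1a3 (-0.08). For Sox9 (-0.08), Hopx (-0.06; -0.24 to 0.12) and Ptprz1 (0.03; -0.02 to 0.07) the interval held 0. The matrix gene Tnc had the largest difference of the 10 in these cells, and it stayed between -0.53 and -0.33 under the alternatives tried. Under the same alternatives Fabp7 ran from -0.01 to 0.22 and Vim from -0.05 to 0.16, so their sign was not stable. Nes (0.10 to 0.28) and Sox2 (0.04 to 0.20) stayed above 0. Pax6 (-0.20 to -0.07) and Slc1a3 (-0.16 to -0.01) stayed below 0.

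How much of the difference over all cells comes with the mixture of cells can be read from a simple exchange. When each cluster kept its wild-type level but took its share of UMIs from the knockout-labelled library, the log2 ratio was -0.55 for Fabp7, -0.56 for Hopx, -0.59 for Tnc, -0.30 for Ptprz1, -0.24 for Pax6, -0.22 for Vim and 0.08 for Sox2. With the shares kept and the levels exchanged, it was 0.18 for Fabp7, -0.04 for Hopx, -0.35 for Tnc, -0.00 for Ptprz1, -0.06 for Pax6, -0.02 for Vim and 0.09 for Sox2. Slc1a3 had parts of both, -0.32 from shares and -0.16 from levels. Exchange of the cluster shares alone thus gave 9 of the 10 genes a lower value, and Tnc and Slc1a3 were the members whose level within clusters was lower by more than 0.1 as well.

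**Figure D3:**
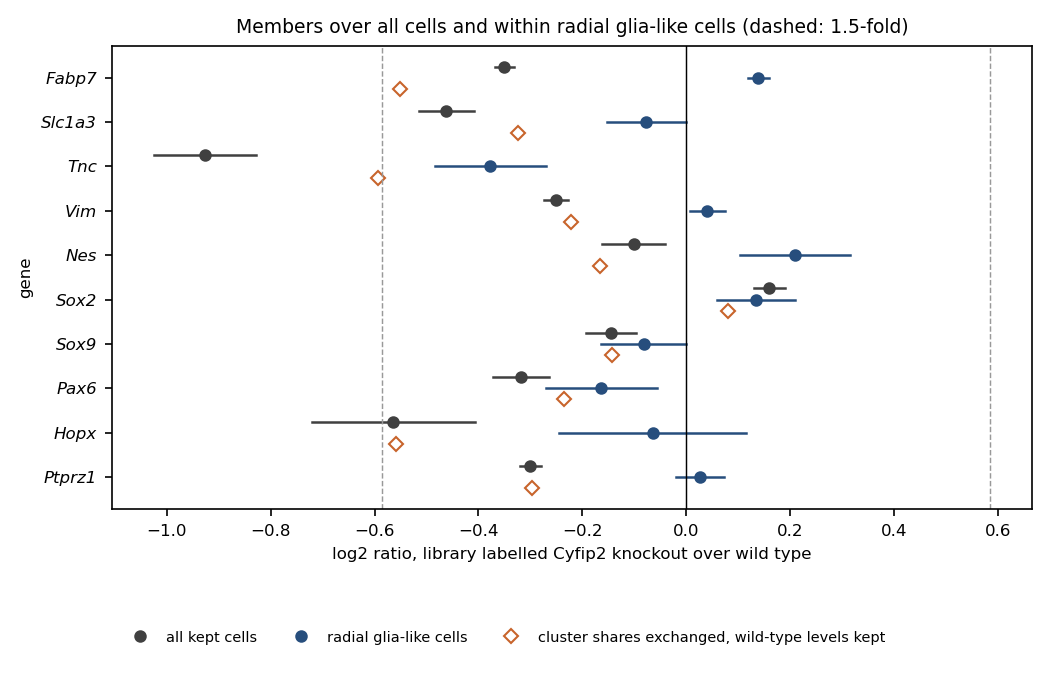
Log2 ratio of the library labelled Cyfip2 knockout over wild type for each gene, over all kept cells (grey) and within radial glia-like cells (blue), with 95% intervals for counting error, and the ratio when only the cluster shares were exchanged (open diamonds). Tnc over all cells (-0.93) lies beyond the dashed line of 1.5-fold, and no blue point does.

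A finer clustering divided the radial glia-like cells into a cluster of 263 and 197 cells with few division transcripts and a dividing cluster of 74 and 64 cells. The summed level of dividing-cell markers was 370 and 316 CPM in the first and 6494 and 6002 CPM in the second. Fabp7 was at 8235 and 8573 CPM in the former cells and at 8175 and 10718 CPM in the dividing cells, a log2 ratio of 0.39 in the latter. Tnc was at 363 and 261 CPM in the former cells (-0.48) and at 418 and 352 CPM in the dividing cells (-0.25), lower in the knockout-labelled library in both. Pax6 was at 312 and 271 CPM in the former cells and at 415 and 389 CPM in the dividing cells, and Vim at 3098 and 3450 CPM and at 3000 and 2774 CPM. Fabp7, Tnc, Pax6 and Vim thus stayed high in radial glia-like cells whether or not they were dividing.

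The wild-type radial glia-like class also held 15 cells with 3 or more UMIs of Neurod1, Neurod4 and Crx, and the knockout-labelled class held none. These cells carried 538 of the 543 Neurod1 UMIs of the class and all 840 of its Tph1 UMIs. They held 336522 of the 5445615 UMIs of the class, 96 of its 1855 Pax6 UMIs and 313 of its 44212 Fabp7 UMIs, so that Fabp7 was low in them and Pax6 close to its share. Without them the members still had no call in either direction, 7 of the 10 lay below 0, and the log2 ratio of Tnc was -0.45. Of the 7118 genes then measured 39 were called lower and 36 higher, against 92 and 38 of the 7181 genes measured with these cells. These cells were singled out after their values had been seen.

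In dividing progenitor-like cells, in clusters 9 and 16, no member reached the size rule between the libraries. Of 8 measured members none was called higher, against 0.292% of the 6508 genes measured, and none lower, against 0.415%. Intervals excluded 0 for Sox2, at 565 and 651 CPM (0.20; 0.14 to 0.26), Vim, at 473 and 507 CPM (0.10; 0.03 to 0.17), and Pax6, at 165 and 141 CPM (-0.23; -0.35 to -0.11). Tnc, too low to be measured, was at 11.7 and 7.17 CPM (-0.70; -1.21 to -0.21). For several members the 2 clusters differed more from each other than the libraries did within either. Their mix differed as well, with 156 cells in cluster 9 and 277 in cluster 16 in wild type, and 150 and 460 in the knockout-labelled library. With equal cluster weights the largest log2 ratio among the 8 measured members was 0.13 in size, and 6 of them lay below 0. Cluster 9, among whose cells Pax6 was at 275 and 289 CPM, was 2.60-fold and 3.32-fold above cluster 16 for that gene, at 106 and 86.9 CPM. Sox2 ran the other way, at 291 and 322 CPM in cluster 9 and at 715 and 772 CPM in cluster 16. Ptprz1 (124 and 125 CPM against 354 and 340 CPM) and Sox9 (61.5 and 69.2 CPM against 173 and 159 CPM) also stood higher in cluster 16, in both libraries. Cluster 16 thus had the higher Sox2, Sox9 and Ptprz1, and cluster 9 the higher Pax6.

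Intermediate progenitor-like cells, the Eomes-led cells of cluster 4 that arise from radial glia, carried all members at lower levels than their source. Of 8 measured members none was called higher, against 0.0904% of the 6635 genes measured, and none lower, against 0.121%. Intervals lay below 0 for Nes, at 37.2 and 27.6 CPM (-0.43; -0.68 to -0.18), Vim, at 444 and 359 CPM (-0.31; -0.38 to -0.24), and Slc1a3, at 65.0 and 53.6 CPM (-0.28; -0.47 to -0.10). Pax6, at 175 and 181 CPM, and Sox2, at 129 and 130 CPM, differed by less than their counting error.

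Eminence progenitor-like cells, the Olig1 and Olig2 cells of cluster 0 in the ventral forebrain, had the largest differences of measured members between the libraries among the classes with at least 50 cells in each. They numbered 152 and 242. Fabp7 was at 447 CPM (420 to 476) in wild type and at 1198 CPM (1160 to 1237) in the knockout-labelled library, which is a log2 ratio of 1.42 (1.32 to 1.52). The level of Slc1a3 was 81.5 CPM (70.2 to 94.1) against 149 CPM (136 to 163), or 0.87 (0.62 to 1.13) as a log2 ratio. These were 2 of 8 measured members called higher, against 1.07% of the 6348 genes measured, and none was called lower, against 1.31%. Tnc, with 19 and 71 UMIs (8.37 and 22.5 CPM), was just short of being measured, and Hopx had 4 and 27 UMIs. The transcription factors Sox2 (496 and 539 CPM), Sox9 (200.5 and 199 CPM) and Pax6 (27.3 and 27.6 CPM) and the filament gene Vim (755 and 740 CPM) were close to level in the same cells.

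The Fabp7 difference rested on few cells. With each cell thinned to 2000 UMIs, 7 of 152 wild-type cells (4.61%) and 12 of 239 knockout-labelled cells (5.02%) had 5 or more Fabp7 UMIs, and the highest cell had 9 and 59. These cells held 36.3% and 59.2% of the Fabp7 UMIs of the class, while the median cell had 0 in both libraries. At 1000 UMIs per cell, Fabp7 was seen in 23.0% and 28.1% of the cells. The summed level of the 40 radial glia markers in the class was 3627 and 3905 CPM, a log2 ratio of 0.11. What part radial glia placed in this cluster have in the difference was not tested. Under the alternatives tried, the log2 ratio ran from 0.67 to 1.55 for Fabp7 and from 0.61 to 0.94 for Slc1a3.

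In excitatory neuron-like cells, 4348 and 5508 cells in 10 clusters, the members were low except for Ptprz1. Of 5 measured members none was called higher, against 0.207% of the 6769 genes measured, and 1, Slc1a3, was called lower, against 0.0739%. The level of Slc1a3 was 31.0 CPM (29.6 to 32.6) against 20.1 CPM (18.97 to 21.3), or -0.63 (-0.74 to -0.52) as a log2 ratio. Ptprz1 was at 526 and 458 CPM (-0.20; -0.22 to -0.17), Vim at 46.2 and 46.0 CPM and Nes at 20.96 and 19.6 CPM. Fabp7 was slightly higher in the knockout-labelled library, at 40.7 and 47.2 CPM (0.22; 0.13 to 0.30), so these 2 radial glia genes differed in opposite directions here.

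The Slc1a3 difference had the same sign in each of the 10 clusters. It was called in 3 of them: cluster 19, led by Inhba and Grm2, at 47.7 and 22.1 CPM (-1.11), cluster 8, led by Tfap2d, at 42.4 and 23.2 CPM (-0.87), and cluster 11, led by Ndrg1 and Hs6st2, at 59.5 and 37.9 CPM (-0.65). The share of measured genes called lower was 0.578% in cluster 19, 4.12% in cluster 8 and 0.245% in cluster 11. Cluster 8 had 134 and 670 cells. In the other clusters Slc1a3 ran from 10.7 to 30.0 CPM in wild type and from 7.73 to 26.8 CPM in the knockout-labelled library. In wild type these were the 3 clusters with the highest Slc1a3, while in the knockout-labelled library cluster 5, at 26.8 CPM, lay above clusters 8 and 19. The call for the whole class was lost with suspected doublets kept (-0.58) and with equal cluster weights (-0.54).

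Free RNA in the droplets bears on a low level of a glial gene in neurons. Barcodes under 100 UMIs held Slc1a3 at 40.6 and 26.3 CPM and Fabp7 at 605 and 421 CPM, that is, 6.71 and 6.24 Slc1a3 UMIs per 100 Fabp7 UMIs. Radial glia-like cells had 7.88 and 6.79. Among the excitatory neuron-like clusters the same ratio ran from 13.2 (cluster 3) to 448 (cluster 19) in wild type and from 8.03 (cluster 3) to 188 (cluster 5) in the knockout-labelled library. It was 298 and 145 in cluster 11 and 108 and 54.8 in cluster 8. At the amount of free RNA set by haemoglobin genes, 2.32% and 2.17% of UMIs, free RNA would give 0.941 and 0.569 CPM of Slc1a3 in these neurons, against the 31.0 and 20.1 CPM found. The same amount would give 14.03 and 9.13 CPM of Fabp7, against 40.7 and 47.2 CPM found. An amount that also used immune and vascular genes, 8.73% and 7.73%, would take more Fabp7 from wild-type excitatory neuron-like cells than they hold. Slc1a3 in excitatory neuron-like cells stood at 76.4% and 76.6% of its level in free RNA, which was itself lower in the knockout-labelled library. What part free RNA has in the Slc1a3 difference between the libraries was not tested.

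**Figure D4:**
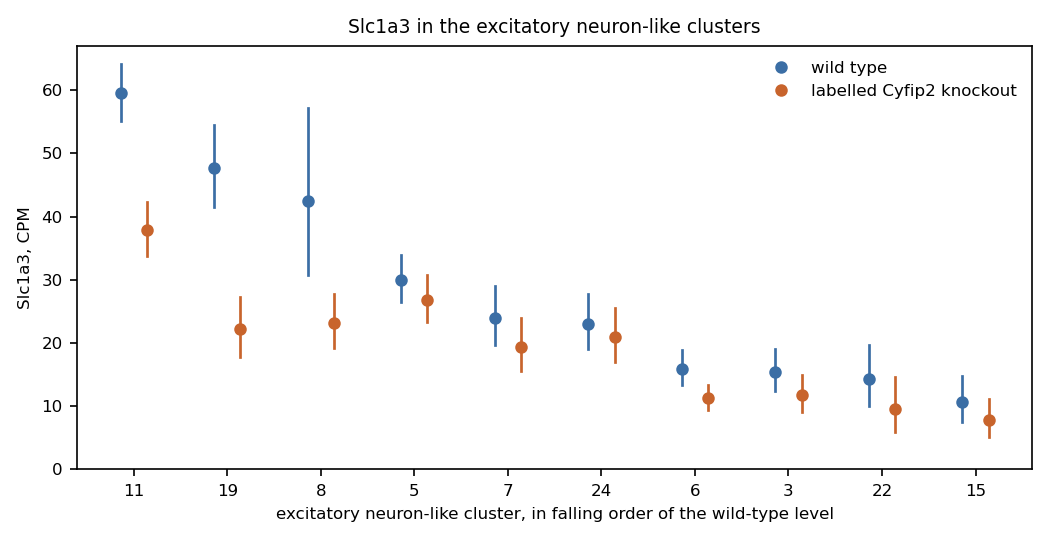
Level of Slc1a3 (CPM, linear axis from 0) in the 10 excitatory neuron-like clusters, ordered by the wild-type level, with 95% intervals for counting error. The orange points (library labelled Cyfip2 knockout) lie below the blue points (wild type) in all 10 clusters, and most clearly in clusters 11, 19 and 8.

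GABAergic neuron-like cells, 2068 and 3562 cells in 7 clusters, kept Sox2 at 414 and 399 CPM, while Fabp7, Slc1a3, Tnc, Nes and Hopx were too low to be measured. Of 5 measured members none was called higher, against 0.511% of the 6844 genes measured, and none lower, against 0.132%. The level of Sox2 differed widely between the clusters. Its highest values were 828 and 703 CPM in cluster 13, led by Tshz1 and Pbx3, and 663 and 724 CPM in cluster 14, which carries the markers Drd2 and Penk of indirect-pathway striatal neurons. Cluster 23 (Htr3a and Prox1) was at 527 and 461 CPM and cluster 18 (Lhx6 and Nxph1) at 472 and 519 CPM. Cluster 10, with the markers Isl1 and Tac1 of direct-pathway striatal neurons, was at only 14.6 and 16.8 CPM. Clusters 10 and 14 thus stood far apart in Sox2, cluster 10 being the lowest of the 7 clusters in both libraries. Each kind of striatal neuron is read here from a single cluster, and cluster 20 also had Isl1 and Ebf1 among its leading genes. Sox9 was also high in cluster 14, at 315 and 284 CPM.

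Single GABAergic clusters gave the only calls among these neurons. In cluster 2, led by Sst, Zic4 and Lhx8, Vim was at 39.7 and 81.2 CPM (1.03) and Sox9 at 32.7 and 65.6 CPM (1.00), both called higher, against 2.24% of the genes measured in that cluster. In cluster 14, Ptprz1 was at 24.4 and 40.1 CPM (0.71) and was called higher, against 0.677%. In cluster 20, led by Isl1 and Zfp503, Vim was at 37.4 and 24.6 CPM (-0.60) and was called lower, against 0.94%. All of these levels are low, and each comparison has 1 library per group.

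Single radial glia-like cells carried more of the members than cells of the other large classes. With every cell thinned to 2000 UMIs, which left out 12 wild-type and 16 knockout-labelled radial glia-like cells, the median radial glia-like cell carried 6 of the 10 members in both libraries. At least 5 members were seen in 274 of 332 cells (82.5%) and 223 of 257 cells (86.8%). The same share was 11.2% and 11.7% in eminence progenitor-like, 10.2% and 8.46% in dividing progenitor-like and 2.36% and 2.73% in intermediate progenitor-like cells. In neurons it was at most 0.26%. The few oligodendrocyte lineage-like cells reached 60.0% and 64.3%.

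**Figure D5:**
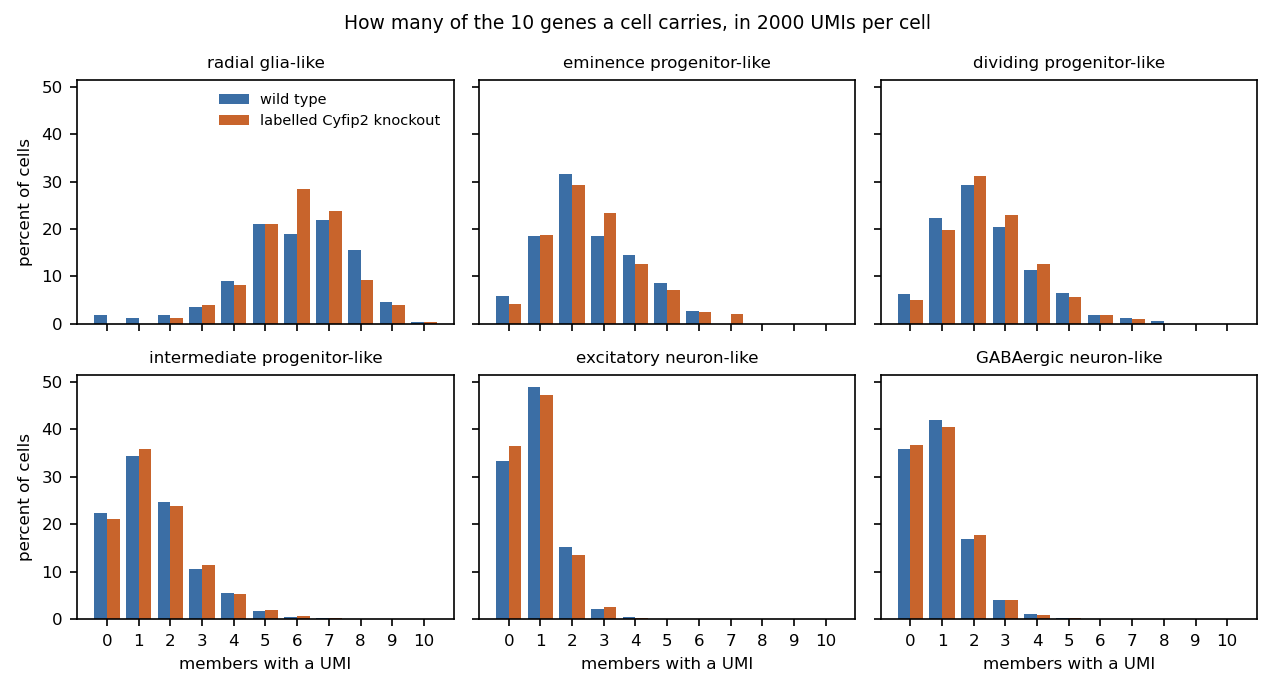
Percent of cells (vertical axis) by how many of the 10 genes have at least 1 UMI after thinning to 2000 UMIs per cell (horizontal axis), for 6 classes and both libraries. Radial glia-like cells centre on 6 members in both libraries, and the 2 neuron classes on 1.

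After thinning to 1000 UMIs, the share of radial glia-like cells with a UMI was 88.7% and 88.3% for Fabp7, 89.8% and 85.0% for Vim and 66.9% and 64.8% for Ptprz1. It was 45.3% and 44.0% for Slc1a3, 43.6% and 44.3% for Sox2, 39.8% and 40.3% for Sox9, 28.5% and 23.8% for Tnc, 25.6% and 28.6% for Pax6, 22.7% and 26.0% for Nes and 10.2% and 6.96% for Hopx. In immune cell-like cells Fabp7 was seen in 1.32% and 2.03% and Vim in 3.95% and 2.70%. Unthinned, Fabp7 was seen in 98.3% and 97.1% and Hopx in 45.6% and 40.7% of radial glia-like cells. The shares of the weaker members thus depend strongly on depth.

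Among radial glia-like cells the 45 pairs of members were only loosely related. The median Spearman correlation over the pairs was 0.06 and 0.02, in a range from -0.14 to 0.51 in wild type and from -0.32 to 0.51 in the knockout-labelled library. The pair Fabp7 and Ptprz1 was highest in both libraries, at 0.51 and 0.51, followed in wild type by Slc1a3 and Ptprz1 (0.43 and 0.23) and by Tnc and Ptprz1 (0.38 and 0.37). Vim and Ptprz1 were lowest (-0.14 and -0.32). These are descriptions of 332 and 257 cells, thinned to 2000 UMIs, that share a library each.

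The genes whose level over the 24 wild-type clusters of at least 50 cells was most like that of each member were found among 7023 genes. For Fabp7 they were Gli3 (Pearson r 0.98), Creb5 (0.95) and Plpp3 (0.95), for Tnc Aldoc (0.97) and Ccdc80 (0.97), and for Hopx Aldoc (0.97), Dct (0.97) and Htra1 (0.97). Those nearest Slc1a3 were Cbs (0.85), Plpp3 (0.85) and the member Nes (0.84), and those nearest Vim were Dbi (0.93), Kcne1l (0.93) and Jam2 (0.92). Nes had Dbi (0.91), Ccdc58 (0.89) and Nrarp (0.89). The likest genes of the transcription factors were Tshz1 (0.89), Sox2ot (0.89) and Gm13889 (0.88) for Sox2, Tpbg (0.89), the member Sox2 (0.84) and H19 (0.82) for Sox9, and Rdx (0.86), Zfp24 (0.84) and Ivd (0.84) for Pax6. Ptprz1 was closest to Schip1 (0.83), Kcnh7 (0.79) and Eif4g1 (0.78). Over the 27 clusters of the knockout-labelled library these correlations ran from 0.34 for Sox9 and H19 to 0.97 for Fabp7 and Gli3. Fabp7, Tnc and Hopx, the most restricted members, had the closest matches, and one of those nearest to Sox2 was Sox2ot, which overlaps it.

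Other genes of the radial glia programme were set beside the members in the same class. In radial glia-like cells, 18 of 23 astroglial maturation genes were measured and none was called, with a median log2 ratio of 0.10. The same held for 15 of 21 genes of outer radial glia and their matrix niche (median 0.06), 25 of 26 progenitor transcription factors (-0.03), 12 of 22 Notch pathway genes (-0.15), 19 of 20 genes of apical junctions and endfeet (-0.08), 11 of 19 relatives and partners of the members (0.03) and 19 of 20 cell division genes (0.02). The median over all measured genes was -0.03. Calls arose in 3 lists. Of 14 measured neurogenic commitment genes 2 were called lower, Neurod1 (99.7 and 2.10 CPM, -5.57) and Neurod4 (21.5 and 0 CPM). Of 9 measured dorsal patterning genes 1 was called lower, Lhx9 (26.1 and 9.72 CPM, -1.42). Of 6 measured ventral patterning genes Nkx2-1 was called higher (8.998 and 23.4 CPM, 1.38) and Otx2 lower (81.9 and 26.5 CPM, -1.63). The 15 wild-type cells with Neurod1, Neurod4 and Crx held nearly all UMIs of Neurod1 and Neurod4 and 315 of the 446 Otx2 UMIs.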

How the data were processed

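Forebrain cells of 1 wild-type and 1 Cyfip2 knockout-labelled library, each a pool of 2 forebrains, were dissociated with papain and captured with 10x chemistry, per the labels' protocols. The deposited values are raw UMI counts per gene and barcode. Per the file headers Cell Ranger 4 made them, and per the submitters' processing notes the genome was mm10. The annotation release and the strand setting were not given in the sources used here.

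Barcodes with 1000 UMIs, 500 genes and no more than 10% mitochondrial UMIs were taken as cells (9086 and 12855). The highest Scrublet scores were removed at 0.8% per 1000 cells (660 and 1322 cells). Clustering used scanpy 1.11.5 and leidenalg 0.10.2 (2000 variable genes without the members, 30 components, 15 neighbours, resolution 1), with numpy 2.4.6, scipy 1.17.1 and pandas 2.3.3 on Python 3.11.15. Class names needed at least 3 fixed markers at 1.5-fold or more above the other cells. The class with most markers among the 10 leading genes was taken, then that with most 1.5-fold markers. This rule was set after the clusters were seen. UMIs were summed per class and library, with exact Poisson intervals, and no test was made with 1 library per group. The size rule was tested on simulated data. The members and lists were chosen with earlier results of these data known. All 10 members, the 3 genes most like each (log2 of CPM plus 10), and called list genes are named, except 1 gene like Tnc that is not reported here. Alternatives covered cells, doublets, scaling, low values, free RNA, mixture and clustering. Promoters are from RefSeq, GRCm38.p6, with Sox9 not analysed there, and coordinates from GENCODE mouse release 21, which matched 32158 of 32285 gene IDs.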

Additional observations from a re-analysis of the deposited data

Results flagged for a closer look

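Slc1a3 was called in opposite directions in 2 classes of cells: its log2 ratio between the libraries, with wild type as the denominator, was 0.87 in eminence progenitor-like cells (81.5 and 149 CPM) and -0.63 in excitatory neuron-like cells (31.0 and 20.1 CPM). With 1 library per group the difference between the 2 ratios was not tested.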

How the results depend on the processing

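The number of members called lower over all cells was 1 (Tnc) and was 0 with equal cluster weights. There the log2 ratio of Tnc was -0.34, and 3 of 7021 measured genes were called lower. The number called lower in dividing progenitor-like cells was 0. It was 1 with no minimum CPM (Tnc), against 216 of 13250 measured genes. It was 2 at resolution 2 (Tnc and Hopx), against 45 of 6663 measured genes. At that resolution the class takes in the dividing radial glia-like cluster. Slc1a3 in excitatory neuron-like cells was at -0.58 with doublets kept and at -0.54 with equal cluster weights. The other 492 values computed under the alternatives kept their side of the size rule, or, as counts, lay within 1.5 times. Beside these, the number called higher in eminence progenitor-like cells was 2, against 68 of 6348 measured genes. It was 4 with no minimum CPM (Tnc and Hopx added), against 223 of 11645 measured genes. At resolution 2 it was 3 (Tnc added), against 74 of 6455 measured genes. At resolution 2 Sox2 was 579 CPM in wild-type radial glia-like cells and 581 CPM in dividing progenitor-like cells, so that 9 of 10 members were highest in radial glia-like cells. At 1000 UMIs the median number of members in a wild-type radial glia-like cell was 5 rather than 6. Equal cluster weights could not be computed within the single radial glia-like cluster, and eminence progenitor-like cells had no cluster at resolution 0.5. No paired analysis was possible because each group has 1 library. That single library, pooled from 2 embryos, limits every comparison, since spread between embryos is not measured. Counts limit Hopx and Tnc outside radial glia-like cells.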

Other observations

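The 10 and 15 oligodendrocyte lineage-like cells carried part of the set at high levels. Fabp7 was at 6226 CPM (5815 to 6658) and 11477 CPM (10823 to 12160), Ptprz1 at 1752 and 2967 CPM, Sox9 at 671 and 999 CPM and Sox2 at 540 and 739 CPM. In the knockout-labelled library Fabp7, Ptprz1 and Sox9 thus lay above radial glia-like cells, which had 8937, 1705 and 525 CPM. Sox2 also lay above their 658 CPM there, with overlapping intervals. In wild type Fabp7 lay below the 8119 CPM of radial glia-like cells, and Sox2 below their 599 CPM. Ptprz1 and Sox9 lay above their 1674 and 556 CPM in wild type too, with overlapping intervals. Pax6 had 1 and 0 UMIs, Tnc 2 and 0, and Hopx none in either library.

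Outside the neural lineages, the 24 and 78 vascular cell-like cells had Vim at 1464 and 1545 CPM and Nes at 177 and 256 CPM. Fabp7 in these cells was at 171 and 50.6 CPM, from 50 and 64 UMIs, a log2 ratio of -1.75 (-2.31 to -1.19). Calls were common in this class, with 418 of its 2808 measured genes called lower and 464 called higher. The 6 and 32 meningeal cell-like cells had Slc1a3 at 550 CPM (421 to 706) and 639 CPM (577 to 707) and Vim at 1902 and 1340 CPM. Meningeal cell-like cells held 0.933% of the Slc1a3 UMIs of the wild-type library and 7.17% of those of the knockout-labelled library.

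Cyfip2 itself was at 21.5 and 54.9 CPM in radial glia-like cells, 35.3 and 67.2 CPM in dividing progenitor-like cells and 15.0 and 56.4 CPM in eminence progenitor-like cells, and at 106 and 93.3 CPM in excitatory neuron-like cells.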
